A study of Mus musculus with 11 samples.

Results

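Polycomb repressive complex 2 (PRC2) places methyl groups on lysine 27 of histone H3, a mark of repressed chromatin. Its catalytic subunit is either Ezh2, which dividing cells express strongly, or the paralogue Ezh1, which is known for its presence in cells that do not divide. Eed, which binds the methylated histone tail, and Suz12, which holds the complex together, are the other core subunits followed here. Jarid2, Mtf2 and Phf19 are accessory subunits that help to bring the complex to its target genes. E2F transcription factors, which drive the entry into DNA replication, are known to act on Ezh2 and Eed. Expression of these 7 genes was followed in mouse embryonic fibroblasts (MEFs) during the first days of reprogramming. The genes were taken by symbol from the 19938 genes of the arrays, and for Eed, the only member with 2 probe sets, the probe set with the higher mean was used.

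The series comprised 11 Affymetrix mouse gene arrays, 1 for each transgene. All cells were male MEFs from 13.5 dpc F1 hybrid embryos of genotype ROSA-rtTA; Nanog-GFP, so every group, the control included, carried the doxycycline-dependent transactivator and the Nanog-GFP reporter. Each culture received a piggyBac transposon of the PB-TAC type together with the pCyL43 transposase plasmid, which inserts the transposon into the genome, and was then kept in ES cell medium with 1 ug/mL doxycycline. In these transposons doxycycline turns on the transgene and an mCherry reporter together. The cassette group (n = 8) carried polycistronic vectors that encode several reprogramming factors in 1 transcript, named EB-C5, MKOS, OKMS, OK+9MS, OKN-HAMS, OSKM, STEMCCA and WTSI. The Klf4-alone group (n = 2) carried Klf4S or Klf4L, titled Klf4 and Klf4+9, of which the second is the form with 9 added residues. Both groups were sorted for mCherry on day 6 of doxycycline. The lacZ control (n = 1) was harvested on day 2 and was not sorted, so in every comparison with it the transgene, the day and the sort cannot be told apart. No construct was measured more than once, so the spread within a group is the spread between different constructs, and the number of arrays limits the precision.

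Values are log2 expression values, on which a difference of 1 is a 2-fold change. Array medians ran from 7.19 to 7.27. Pou5f1, which all cassettes encode, read 11.89 to 13.22 in the cassettes and 5.84 to 6.09 on the other 3 arrays, and Myc read 9.86 to 10.91 against 8.65 to 9.54. Of 12 fibroblast markers, 11 lay above the array's median on all arrays. Their mean was 10.61 to 11.55 in the cassettes, 11.88 and 11.90 with Klf4 alone and 10.85 in lacZ. The mean of 14 epithelial and keratinocyte markers ranged from 7.26 to 10.73 in the cassettes, was 8.81 and 8.95 with Klf4 alone and 7.11 in lacZ. The endothelial and blood marker means lay between 6.35 and 7.11 on all arrays, and the pluripotent marker mean between 6.11 and 7.41. Single markers departed from these means. Pluripotent Nanog averaged 9.46 in the cassettes, 6.63 with Klf4 alone and 6.65 in lacZ. For the blood marker Laptm5 the values were 9.35, 6.9 and 6.85, and for endothelial Tek 9.57, 7.92 and 6.24. Endothelial Esam went the other way, at 6.54, 8.39 and 6.93. Cassette means exceeded Klf4 alone for 9 of 10 pluripotent, 5 of 8 blood and 2 of 7 endothelial markers, beside 8922 of 19938 genes. In bulk RNA of this kind fewer cells of a type and less RNA per cell cannot be told apart.

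The stretches of 250 bases before the RefSeq start sites of 4 of the 7 genes are shown because the results turn on them. Ezh2 and Suz12 are the pair that passed the test between cassettes and Klf4 alone, Ezh1 is the member whose correlation with the cell cycle genes had a negative sign, and Phf19 is the member with the largest difference from lacZ. All are from GRCm38.p6, are written 5′ to 3′ on the strand of the gene, and carry in capitals each match to a motif searched on both strands. Searched were the E2F sites TTTCCCGC, TTTGGCGC, TTTGCCGC and TTTCGCGC, the E-box CACGTG that Myc can bind, the KLF site GGGNGTGG, the cell cycle homology region (CHR) TTTGAA and the CCAAT box.
Ezh2, chr6:47595031-47595280, minus strand: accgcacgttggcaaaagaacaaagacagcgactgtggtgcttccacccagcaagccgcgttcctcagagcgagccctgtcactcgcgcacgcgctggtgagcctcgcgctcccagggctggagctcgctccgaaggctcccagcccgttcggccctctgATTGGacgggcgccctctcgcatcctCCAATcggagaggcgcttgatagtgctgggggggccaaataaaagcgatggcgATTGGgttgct
Suz12, chr11:79992856-79993105, plus strand: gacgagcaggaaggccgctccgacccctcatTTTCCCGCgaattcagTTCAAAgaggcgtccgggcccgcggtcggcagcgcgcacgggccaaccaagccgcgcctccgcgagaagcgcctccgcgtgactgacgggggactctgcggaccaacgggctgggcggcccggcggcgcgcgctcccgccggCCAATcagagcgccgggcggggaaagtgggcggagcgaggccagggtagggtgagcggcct
Ezh1, chr11:101226464-101226713, minus strand: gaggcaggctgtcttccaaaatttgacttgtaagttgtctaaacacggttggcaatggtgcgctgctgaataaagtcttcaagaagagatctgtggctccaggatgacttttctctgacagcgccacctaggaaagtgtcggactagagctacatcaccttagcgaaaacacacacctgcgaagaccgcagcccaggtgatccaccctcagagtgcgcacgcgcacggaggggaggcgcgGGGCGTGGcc
Phf19, chr2:34913977-34914226, minus strand: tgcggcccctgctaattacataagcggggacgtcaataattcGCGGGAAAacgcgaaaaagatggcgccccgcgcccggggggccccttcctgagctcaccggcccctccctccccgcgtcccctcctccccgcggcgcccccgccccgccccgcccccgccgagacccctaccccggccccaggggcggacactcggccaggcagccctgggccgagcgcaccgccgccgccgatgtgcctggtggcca

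Ezh2 (gene span chr6:47530274-47595270) held 3 CCAAT boxes, 90, 64 and 11 bases before the start. Suz12 (chr11:79993106-80034123) held an E2F site 219 bases, a CHR 203 bases and a CCAAT box 61 bases before the start. Phf19 (chr2:34893752-34914353) held an E2F site 208 bases before the start, and Ezh1 (chr11:101191115-101226463) a KLF site 10 bases before it. The windows of Ezh2 and Phf19 overlap the gene span, since the start site of the promoter table lies inside it. Among 9 windows of the 7 members an E2F site was present in 2, those of Suz12 and Phf19, against 1.86% of all 32851 windows of the table. A CHR was found for Suz12, for Eed (chr7:89954654-89980976) and in the second window of Mtf2 (chr5:108065660-108109219), against 16% of all windows. That window, chr5:108077915-108078164, lies inside the Mtf2 gene, as the second window of Jarid2 lies inside its own, and the first Mtf2 window overlaps the gene's start. CCAAT boxes, present in 33.8% of all windows, were found for Ezh2, Suz12, the second window of Mtf2 and the first of Jarid2 (chr13:44730774-44921643). The KLF site was in 15.9% of all windows and the E-box in 6.02%, and no window of a member held the E-box. These matches describe the letters of the windows only, and binding was not measured.

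The first comparison asked whether the polycistronic cassettes and Klf4 alone, sorted alike on the same day, differ in PRC2 expression. Ezh2 and Suz12 were higher in the cassettes, and all 7 genes had a difference above 0. The limma fit with Benjamini-Hochberg adjustment called these 2 of 7 members at an adjusted p under 0.05, where 14.5% of all 19938 genes were called and 6.35% were called higher. The median difference of the 7 members was 0.60, beside -0.02 over all genes. All 8 cassettes read above both Klf4-alone arrays for Ezh2, Suz12, Jarid2 and Mtf2, that is 4 of 7 members, where 12.3% of all genes had this pattern.

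Ezh2 read 10.75 in OSKM, 11.54 in OKMS, 10.85 in OK+9MS, 10.50 in MKOS, 11.01 in STEMCCA, 11.65 in EB-C5, 10.96 in WTSI and 10.91 in OKN-HAMS. It read 9.68 in Klf4S, 9.57 in Klf4L and 10.77 in lacZ. EB-C5 and OKMS were the high cassettes, MKOS was the low one, and the lacZ array fell among the cassettes. The cassette mean was 11.02 ± 0.39 (SD, n = 8) against 9.63 with Klf4 alone (n = 2). Ezh2 was thus 1.39 ± 0.27 (SE) higher in the cassettes, a 2.63-fold change with a 95% interval of 0.80 to 1.99 in log2 (limma, adjusted p = 0.01288). No other member differed by as much.

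Ezh1, the other catalytic subunit, read from 9.04 (EB-C5) over a median of 9.27 to 9.57 (OKN-HAMS) in the cassettes. On the other arrays it read 9.18 (Klf4S), 9.13 (Klf4L) and 9.01 (lacZ). The cassettes and Klf4 alone overlapped, since EB-C5 lay below both Klf4-alone arrays. The difference was 0.16 ± 0.13, with a 95% interval of -0.13 to 0.44 (limma, adjusted p = 0.4805), whose upper end lies below the lower end for Ezh2.

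The paralogues were compared directly. Ezh2 minus Ezh1, taken within each array, ran from 0.93 in MKOS over a median of 1.59 to 2.62 in EB-C5, and was 0.51 in Klf4S, 0.44 in Klf4L and 1.76 in lacZ. No cassette reached down to the Klf4-alone arrays. Ezh2 and Ezh1 thus changed by unequal amounts: the cassettes exceeded Klf4 alone by 1.24 in this quantity (exact permutation test over 45 splits, two-sided, p = 0.04444, smallest possible 0.02222). Brightness differs between probe sets, so the sign of this quantity on 1 array is not a ranking of the paralogues; only its change between arrays is read here. With OSKM, OK+9MS, STEMCCA or WTSI left out in turn the exact p became 0.05556.

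**Figure D1:**
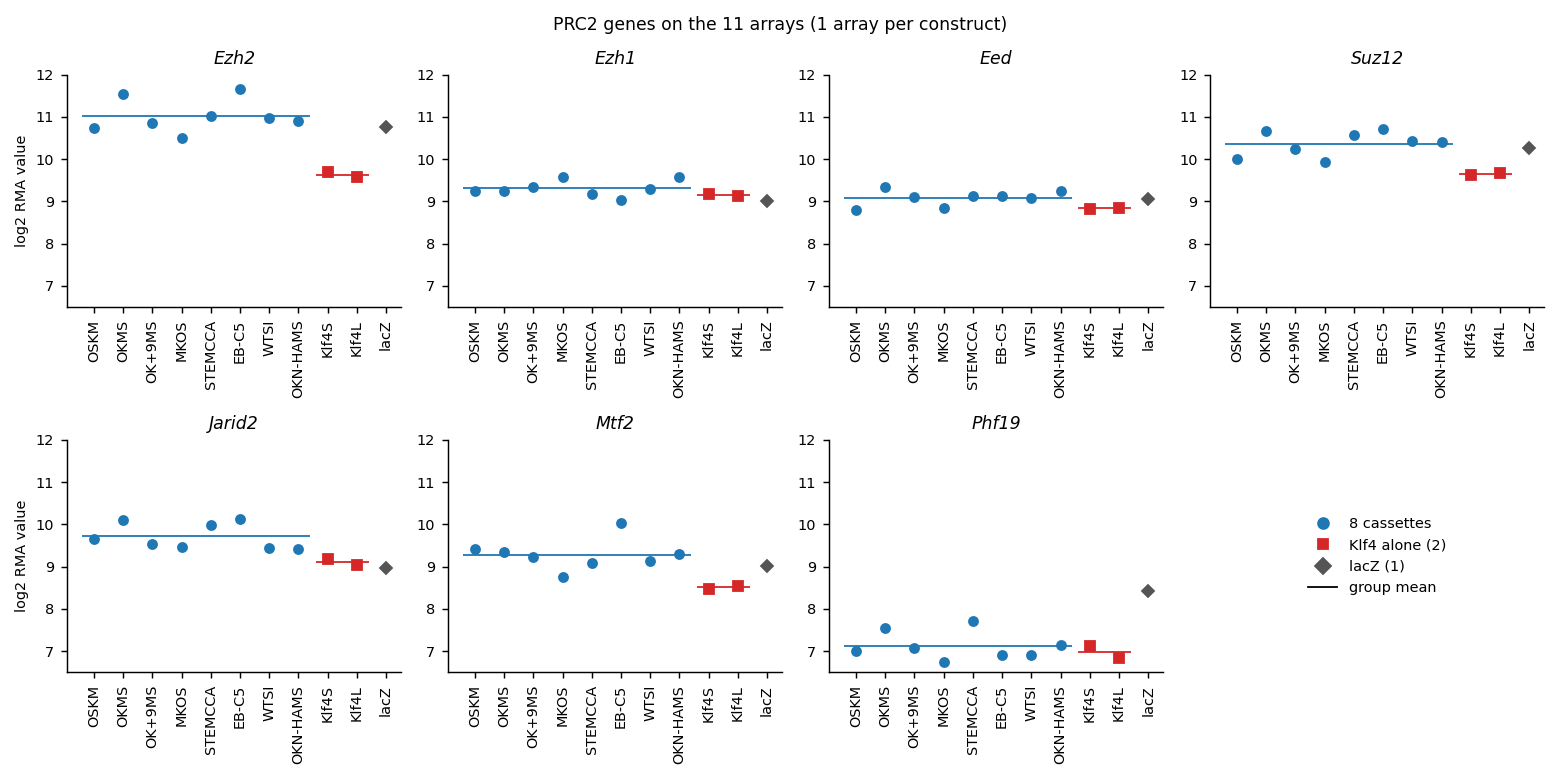
Log2 expression of the 7 PRC2 genes on each of the 11 arrays, with 1 point per construct (circles, 8 cassettes; squares, 2 Klf4-alone constructs; diamond, lacZ) and a line at each group's mean. Ezh2 lies between 10.50 and 11.65 in the cassettes and at 9.68 and 9.57 with Klf4 alone, while Phf19 is highest in lacZ at 8.43.

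In the core, Suz12 read from 9.92 (MKOS) over a median of 10.41 to 10.71 (EB-C5) in the cassettes. Klf4S had 9.62, Klf4L 9.66 and lacZ 10.26. The same pair of cassettes as for Ezh2, EB-C5 and OKMS (10.67), was highest, and the groups did not overlap. Suz12 was 0.73 ± 0.20 higher in the cassettes, 1.65-fold, with a 95% interval of 0.28 to 1.17 (limma, adjusted p = 0.04062). Eed, the histone tail reader, ran from 8.80 (OSKM) over a median of 9.12 to 9.34 (OKMS), and read 8.82 in Klf4S, 8.85 in Klf4L and 9.06 in lacZ. OSKM and MKOS overlapped the Klf4-alone arrays, and the difference of 0.25 ± 0.13 did not pass (limma, adjusted p = 0.2252). The second Eed probe set, not used, stayed between 5.48 and 5.79 on all arrays, a range that cannot be told from background here.

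Among the accessory subunits, Mtf2, a Polycomb-like protein that binds unmethylated CpG-rich DNA, read from 8.76 (MKOS) over a median of 9.25 to 10.03 (EB-C5). It was 8.48 in Klf4S, 8.55 in Klf4L and 9.01 in lacZ. EB-C5 stood above the other cassettes, and every cassette lay above both Klf4-alone arrays. The difference was 0.77 ± 0.25 (limma, adjusted p = 0.06414). Without MKOS or without EB-C5 it passed, at 0.85 (adjusted p = 0.02909) and 0.66 (adjusted p = 0.02807). Jarid2, a JmjC-domain protein without demethylase activity that recruits PRC2, read from 9.43 (OKN-HAMS) over a median of 9.59 to 10.14 (EB-C5), with 9.19 in Klf4S, 9.05 in Klf4L and 8.97 in the lacZ array. The groups did not overlap, and the difference of 0.60 ± 0.21 did not pass (limma, adjusted p = 0.08581). Phf19, a Polycomb-like paralogue of Mtf2, read from 6.75 (MKOS) over a median of 7.04 to 7.72 (STEMCCA), 7.12 in Klf4S and 6.84 in Klf4L. Cassettes and Klf4 alone overlapped for Phf19, with a difference of 0.15 ± 0.23 (limma, adjusted p = 0.7383). Phf19 was the dimmest member, with a mean level at percentile 43.9 of all genes. While 6 of 7 members lay above the array's median on all arrays, Phf19 did not.

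Both calls of this comparison rested on having 2 Klf4-alone arrays. Without Klf4S the adjusted p was 0.1346 for Ezh2 and 0.2582 for Suz12, and without Klf4L 0.1355 and 0.2066, while the differences stayed at 1.45 and 0.70, and at 1.34 and 0.75. In those fits 0 of 7 members were called, as were 104 and 92 genes in all, against 2885 with both arrays. Suz12 also missed the threshold, at adjusted p from 0.05086 to 0.06339, without OKMS, OK+9MS, EB-C5, WTSI or OKN-HAMS, and at 0.05319 with each array centred on its median.

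Against lacZ, the study's reference, no member was called in either group. The cassettes differed from lacZ by 0.25 ± 0.36 for Ezh2 (adjusted p = 0.8668), 0.11 ± 0.27 for Suz12 (0.9613) and 0.03 ± 0.17 for Eed (0.9984) in the limma fit. Klf4 alone differed from the same lacZ array by -1.14 ± 0.41 for Ezh2 (adjusted p = 0.3002), -0.62 ± 0.31 for Suz12 (0.5107) and -0.22 ± 0.20 for Eed (0.7963). These contrasts share the lacZ array and are set side by side only as values. The limma counts were 0 of 7 members for the cassettes, where 2.05% of all genes were called, and 0 of 7 for Klf4 alone, where 0.747% were. At an unadjusted p under 0.05 the counts were 2 of 7 for the cassettes, beside 15.5% of all genes, and 2 of 7 for Klf4 alone, beside 11.5%.

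Phf19 and Jarid2 had the largest differences of the cassettes from lacZ, in opposite directions. Phf19 read 8.43 in lacZ, above every day 6 array, of which STEMCCA at 7.72 came nearest. Its difference was -1.29 ± 0.31 for the cassettes (limma, adjusted p = 0.07546) and -1.45 ± 0.36 for Klf4 alone (adjusted p = 0.1215). Without STEMCCA the former became -1.38 and passed (adjusted p = 0.02173). All 10 day 6 arrays lay below lacZ for 14.5% of all genes, so this arrangement alone does not set Phf19 apart. Jarid2 read 8.97 in lacZ, below all other arrays, an arrangement it shared with Ezh1 (9.01) and with 8.77% of all genes. Jarid2 had differences of 0.74 ± 0.28 (limma, adjusted p = 0.2467) and 0.14 ± 0.33 (adjusted p = 0.9663) for the cassettes and Klf4 alone. Mtf2 differed from lacZ by 0.28 ± 0.33 in the cassettes and by -0.49 ± 0.38 with Klf4 alone, and Ezh1 by 0.30 ± 0.17 and 0.15 ± 0.20.

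**Figure D2:**
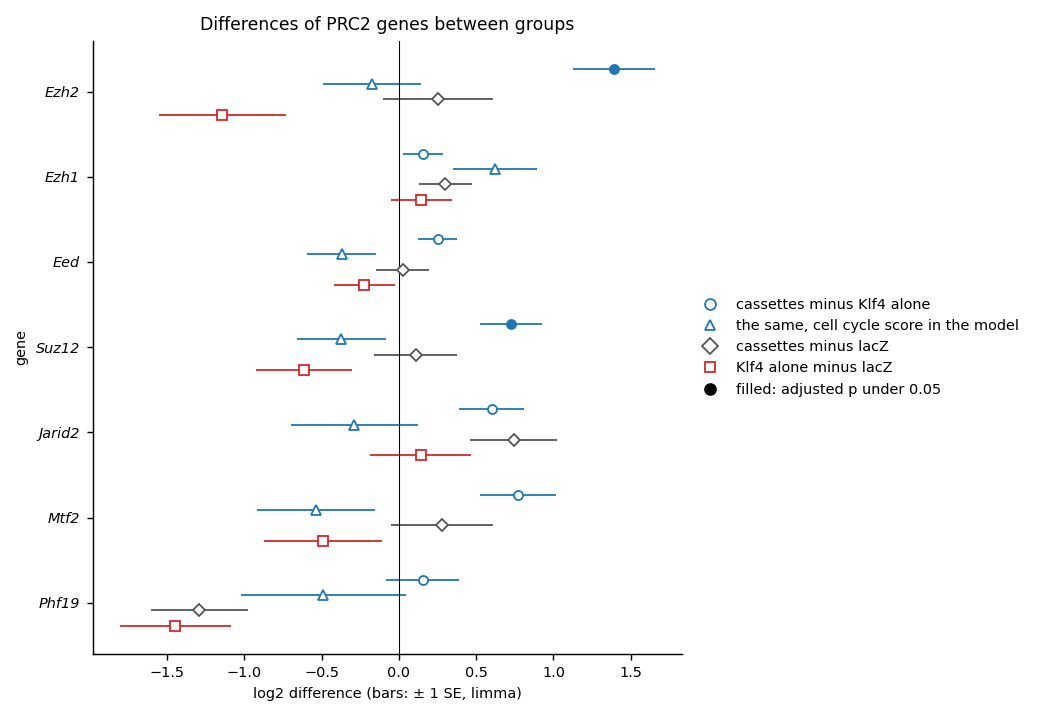
Log2 differences of the 7 PRC2 genes between groups with limma standard errors as bars: cassettes minus Klf4 alone without (circles) and with (triangles) the cell cycle score in the model, cassettes minus lacZ (diamonds) and Klf4 alone minus lacZ (squares). Filled symbols, at Ezh2 (1.39) and Suz12 (0.73), mark an adjusted p under 0.05, and with the score in the model they are -0.17 and -0.37 (Ezh2 0.064 when replication genes alone form the score).

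Each array's cell cycle state was read from a score, the mean log2 value of 59 genes, of which 30 serve DNA replication and 29 act in G2 and mitosis. None of the 7 members is in the score. It was 9.65 in OSKM, 10.16 in OKMS, 9.64 in OK+9MS, 9.02 in MKOS, 9.69 in STEMCCA, 10.16 in EB-C5, 9.64 in WTSI and 9.93 in OKN-HAMS. The Klf4-alone arrays had 8.09 and 8.08, and lacZ had 9.77. OKMS and EB-C5, the cassettes with the highest Ezh2 and Suz12, also had the highest scores, MKOS had the lowest among the cassettes, and Klf4 alone lay apart from all of them. For the cassettes against Klf4 alone 27 of 30 replication genes and 29 of 29 G2 and mitosis genes were called higher, with median differences of 1.44 and 1.84. Mcm10, a replication factor that helps to activate the loaded helicase, rose by 2.75 ± 0.43 (limma, adjusted p = 0.006225) and the mitotic kinase Aurka by 2.44 ± 0.30 (adjusted p = 0.002818).

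Because the Klf4-alone arrays form a cluster of their own, the relation of each gene with the score was computed over the 8 cassettes only. Ezh2 correlated with the score with Pearson's r = 0.89 (exact permutation p = 0.002778) and Spearman's rho = 0.76 (exact permutation p = 0.03676). Suz12 had r = 0.83 (exact permutation p = 0.006845) and rho = 0.76 (exact permutation p = 0.03676), and Mtf2 r = 0.80 (p = 0.03311) and rho = 0.69 (p = 0.06939) by the same exact test. For Eed, r was 0.75 (exact permutation p = 0.02964) and rho 0.83 (exact permutation p = 0.01538). For these 4 members the cassettes with higher cell cycle scores tended to read higher, at p-values not yet adjusted. Jarid2 gave r = 0.64 (exact permutation p = 0.08232) and rho = 0.60 (p = 0.1323), and Phf19 r = 0.42 (exact permutation p = 0.2948) and rho = 0.52 (p = 0.1966). Ezh1 was the single member with a negative sign, at r = -0.56 (exact permutation p = 0.1447) and rho = -0.43 (p = 0.2992).

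An unadjusted p under 0.05 for r was reached by 4 of 7 members, where 12.4% of all 19879 genes outside the score reached it and 7.32% did so with r above 0. After Benjamini-Hochberg adjustment over those genes 0 of 7 members and 0% of all genes remained, with adjusted p from 0.2059 (Ezh2) to 0.6673 (Phf19). With 8 arrays the smallest exact permutation p is 2.48e-05, and 1 gene alone at that p would adjust to 0.493, so the adjusted count says little about these relations. The r of Ezh2 stood at percentile 98.7 among all genes and that of Ezh1 at percentile 11.5. MKOS and OKMS were the arrays farthest from the median score. Without them r was 0.84 for Ezh2, 0.84 for Mtf2, 0.64 for Suz12, 0.52 for Jarid2, 0.46 for Eed, -0.24 for Phf19 and -0.24 for Ezh1, over 6 arrays and with exact permutation p of 0.05694 (Mtf2) or more. The r of Ezh2 and Mtf2 thus stayed near its size, while that of Eed, Phf19 and Ezh1 did not. Single arrays moved some of these values as well. Without MKOS alone Ezh2 had r = 0.89 (exact permutation p = 0.02222), and the unadjusted p of Suz12, Mtf2 and Eed became 0.08095, 0.05992 and 0.1341 by the same exact test. Ezh1 had r = -0.23 without MKOS and -0.86 without OKN-HAMS (exact permutation p = 0.02202), and Phf19 had 0.11 without MKOS, 0.25 without OKMS, 0.66 without STEMCCA and 0.65 without EB-C5. Eed had 0.47 when its dim second probe set was averaged in.

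The same relation as a limma slope gave 0.95 ± 0.19 for Ezh2 (adjusted p = 0.08796), 0.79 ± 0.22 for Mtf2 (0.1892), 0.66 ± 0.17 for Suz12 (0.1594) and 0.38 ± 0.13 for Eed (0.2638), in log2 units per unit of the score. Ezh1 had a slope of -0.28 ± 0.16. None of the 7 members passed, and 0.528% of the genes did. Slopes of this size also occurred in the chromatin lists described below. Suv39h2 had 1.28 ± 0.17 and passed (limma, adjusted p = 0.0337), and L3mbtl2 had 0.79 ± 0.18 and Wdr5 0.67 ± 0.17. The members' median slope was 0.54. It was 0.13 for other PRC2 subunits, 0.15 for PRC1, 0.16 for the trithorax list and 0.42 for H3K9 methyltransferases. The straight lines through the cassettes were extended to the scores of the other arrays, which for Klf4 alone lies outside the range they were fitted on, since no cassette scored below 9.02. Ezh2 in Klf4S and Klf4L lay 0.23 and 0.12 above its line, the smallest gaps of the members there. Mtf2 lay 0.50 and 0.58 above, and Suz12 0.35 and 0.40 above. Ezh1 lay below, at measured minus line values of -0.60 and -0.65. In lacZ, whose score falls inside the range, Phf19 was 1.28 above its line and Jarid2 was off by -0.76, while Ezh2 (-0.28), Suz12 (-0.13) and Eed (-0.04) were nearer.

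**Figure D3:**
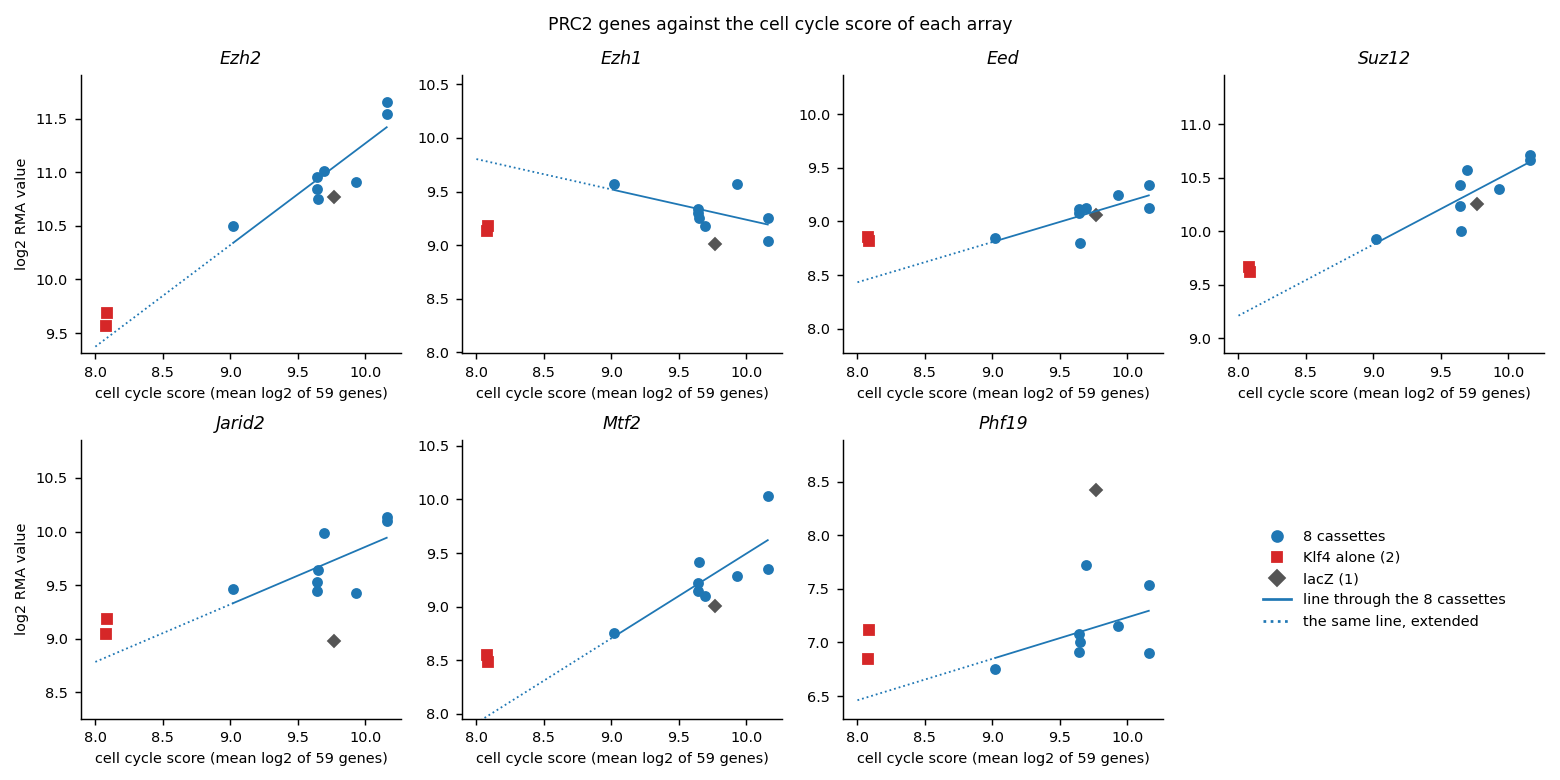
Log2 expression of each PRC2 gene (vertical axis, whose origin differs between panels) against the cell cycle score of the array (horizontal axis, mean log2 value of 59 genes), with the straight line through the 8 cassettes, dotted where it is extended below their lowest score of 9.02. Ezh2 with Klf4 alone lies 0.12 and 0.23 above its extended line, Ezh1 lies below its line there, and Phf19 in lacZ lies 1.28 above its line.

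With the score added to the 3-group limma model, the cassettes no longer exceeded Klf4 alone for 6 of the 7 members. The differences became -0.17 ± 0.32 for Ezh2, -0.37 ± 0.29 for Suz12, -0.37 ± 0.22 for Eed, -0.54 ± 0.38 for Mtf2, -0.29 ± 0.41 for Jarid2 and -0.49 ± 0.53 for Phf19. Differences in this model, also those against lacZ below, restate the gaps from the cassette lines with the sign reversed. They are not a second result beside those gaps. The value of Ezh2 was 0.064 when the replication genes alone formed the score and 0.038 without EB-C5, so its sign is not settled. Leaving out 1 array moved several others. Without MKOS Jarid2 was -0.85, Phf19 -0.06 and Ezh1 0.39, without EB-C5 Mtf2 was -0.16, Jarid2 -0.11 and Phf19 -0.85, and without OKMS Jarid2 was -0.15 and Phf19 -0.27. Ezh1 was the exception, with 0.62 ± 0.27. Differences turned negative for many other genes as well. Of the score's own genes, 6 of 30 replication genes were above 0 (median -0.35), as were 21 of 29 G2 and mitosis genes (median 0.30). Of other PRC2 subunits 2 of 8 were above 0, and of H3K9 methyltransferases 0 of 5, beside 8202 of all 19938 genes. In this model 0 of 7 members were called, each with adjusted p = 0.9998, where 0.0351% of all genes were called, and 1 of 7 members, Ezh1, had an unadjusted p under 0.05, beside 4.58% of all genes. The slope on the score in this model repeats that within the cassettes, since each group has its own mean and the Klf4-alone scores nearly coincide. It is no further result. Unlike before, the genes of the score were among those tested, and 24 of 30 replication and 19 of 29 G2 and mitosis genes were called. Those calls follow from the definition of the score, and they count in the adjustment and in the share of all genes. In the slope fit over the cassettes, which left these genes out, Ezh2 was not called (limma, adjusted p = 0.08796). In the 3-group model the slope was 0.95 ± 0.18 for Ezh2 (limma, adjusted p = 0.03619), the single member called for the score among 7, where 1.87% of all genes were called. That call was lost without OKMS (adjusted p = 0.1624), OK+9MS (0.06748), MKOS (0.1316), EB-C5 (0.07592) or either Klf4-alone array (0.07592), while the slope stayed between 0.79 and 1.32, and without STEMCCA Suz12 was called as well (0.68 ± 0.14, adjusted p = 0.04976). The scores of the cassettes and of Klf4 alone do not overlap, with a gap between 8.09 and 9.02 that holds no array. The adjusted difference thus rests on extending the slope over that gap, and the model cannot tell a group effect from a bend in the relation with the score. For the cassettes against lacZ, Phf19 kept -1.28 ± 0.30 with the score in the model (limma, adjusted p = 0.05338), and 0 of 7 members were called, where 3.99% of all genes were. Without STEMCCA Phf19 was called there too, at -1.37 (adjusted p = 0.008861).

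Marker levels moved across the cassettes too. The 4 cassettes with the highest Ezh2 (EB-C5, OKMS, STEMCCA and WTSI) were those with the 4 lowest means of the epithelial markers, from 7.26 to 8.16 against 10.06 to 10.73 in the others. The same 4 had the highest Suz12, but not the highest Eed, Jarid2, Mtf2, Phf19 or Ezh1. The split also rests on a narrow gap. WTSI read 10.96 and OKN-HAMS 10.91 for Ezh2, and 10.43 and 10.39 for Suz12. Of these 14 markers 4 lay above the array's median on all arrays. In the cassettes against Klf4 alone 1 was called higher and 0 lower, beside 6.35% and 8.12% of all genes. The mean of the fibroblast markers was higher with Klf4 alone than in any cassette. Of these markers 2 of 12 were called lower in the cassettes, beside 8.12% of all genes, with a list median of -0.92. The part of these cell type markers in the PRC2 differences was not tested.

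Over the cassettes, Ezh2 correlated most with Suz12 among the members (r = 0.90), followed by Jarid2 (0.83), and Ezh1 ran opposite to Ezh2 (-0.71) and Jarid2 (-0.79). These values describe 8 arrays and carry no test. Among the 2845 candidate genes (2844 for Ezh2 and Mtf2, themselves candidates) with a mean of at least 7 and a range of at least 1 over the cassettes, the profiles most like Ezh2 were those of Mbtd1 (r = 0.98) and Prelid3a (0.97). For Suz12 they were Insm1 (0.99) and Fbxo5 (0.98), an inhibitor of the anaphase-promoting complex, and for Eed Pop5 (0.92) and Mcm2 (0.92), a helicase subunit that is itself in the score. Jarid2 was nearest to Wee1 (0.95), the kinase that holds back mitosis, and to Fn3krp (0.93). Mtf2 was nearest to Trip13 (0.97) and to the centriole gene Stil (0.95). Phf19 was nearest to the meiotic gene Syce2 (0.96) and Cbs (0.92), and Ezh1 to Mfsd7a (0.91) and the growth factor gene Bmp6 (0.90).

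The remaining Polycomb genes had calls in both directions between cassettes and Klf4 alone. Of 8 other PRC2 subunits 1 was called higher and 1 lower, where 6.35% of all genes were called higher and 8.12% lower. The median difference of the 8 was 0.08. Epop, a cofactor found with PRC2 in embryonic stem cells, read 8.17 in Klf4S, 8.28 in Klf4L and 8.34 in lacZ, and ran from 8.94 over a median of 9.26 to 9.84 in the cassettes. It rose by 1.13 ± 0.22 (limma, adjusted p = 0.01366). Phf1, the third Polycomb-like paralogue beside Mtf2 and Phf19, ran from 8.30 over a median of 8.51 to 8.79, against 9.18, 9.29 and 8.99 on the same 3 arrays. It fell by 0.73 ± 0.13 (limma, adjusted p = 0.009299), while Mtf2 had a positive difference that missed the threshold.

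PRC1, the second Polycomb complex, ubiquitinates histone H2A. Of 20 subunits 3 were called higher and 2 lower, where 6.35% of all genes were called higher and 8.12% lower. The median difference of the 20 was 0.06. Pcgf6 (1.17 ± 0.27, limma adjusted p = 0.02258) and L3mbtl2 (1.04 ± 0.23, 0.02025), subunits of the same PRC1 variant, and the chromodomain protein Cbx2 (0.47 ± 0.10, 0.0181) rose. Phc3, a Polyhomeotic protein of canonical PRC1, fell by 0.64 ± 0.14 (limma, adjusted p = 0.02098). So did the ubiquitin ligase Ring1, by 0.27 ± 0.07 (limma, adjusted p = 0.04094), which is named because it completes the count.

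For the cassettes against Klf4 alone 6.35% of all genes were called higher and 8.12% lower. Among 13 H3K27 demethylases and trithorax-group proteins, which oppose Polycomb, 2 were called higher and none lower, with a median of 0.17. They were Dpy30 (2.01 ± 0.36, limma adjusted p = 0.0102) and Wdr5 (1.18 ± 0.20, 0.009092), shared subunits of the H3K4 methyltransferases. Dpy30 lay between 10.39 and 11.83 in the cassettes and at 9.21, 9.34 and 10.47 in Klf4S, Klf4L and lacZ. Of 5 H3K9 methyltransferases, Suv39h2 (1.81 ± 0.34, adjusted p = 0.01175) and Setdb1 (0.64 ± 0.14, 0.02144) rose in the same fit.

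A further list held developmental regulators that PRC2 is known to repress in embryonic stem cells. Of 28 measured, 4 lay above the array's median on all arrays, so most were dim. For the cassettes against Klf4 alone 5 of 28 were called lower and none higher, with a median of -0.04, where 8.12% of all genes were called lower. Tbx5, a limb and heart factor, fell by 1.29 ± 0.33 (limma, adjusted p = 0.03233), Gata6 by 1.24 ± 0.17 (0.003997), Wnt1 by 0.69 ± 0.07 (0.001103) and Lhx2 by 0.52 ± 0.12 (0.02187). Dlx5, which completes the count, fell by 0.35 ± 0.10 (limma, adjusted p = 0.03925). Tbx5 and Lhx2 read highest in lacZ, at 9.83 and 8.39, whereas Gata6 (8.54) and Wnt1 (6.52) in lacZ lay near the top of the cassettes. Of 6 CDK inhibitors, which restrain the cell cycle, 1 was called lower and none higher, beside 8.12% and 6.35% of all genes. It was Cdkn2b, a gene of the Ink4 locus, which PRC2 is known to repress in dividing fibroblasts. Cdkn2b fell by 1.22 ± 0.30 (limma, adjusted p = 0.02828). It read 10.53 and 10.54 with Klf4 alone, 9.80 in lacZ and 8.75 over 9.25 to 9.91 in the cassettes. Cdkn2a was among the 5 not called, with means of 9.09 in the cassettes and 9.38 with Klf4 alone. Histone methylation was not measured on these arrays.

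**Figure D4:**
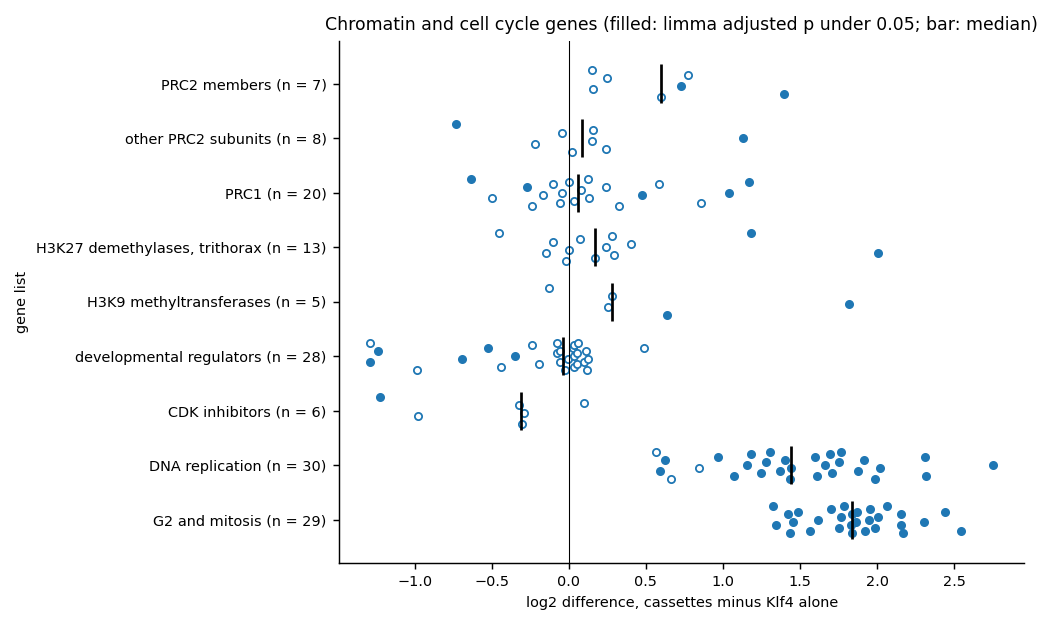
Log2 difference, cassettes minus Klf4 alone, of each measured gene of the PRC2 members, other chromatin lists, the CDK inhibitors and the cell cycle lists (horizontal axis), with a bar at each list's median and filled circles at a limma adjusted p under 0.05. The median of the CDK inhibitors is -0.31. The members' median of 0.60 lies between those of the other chromatin lists (-0.04 to 0.28) and those of the DNA replication (1.44) and G2 and mitosis (1.84) genes.

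Against lacZ the counts were as follows, where 2.05% of all genes were called for the cassettes and 0.747% for Klf4 alone. For the cassettes 0 genes of the other PRC2, PRC1, trithorax, H3K9 and CDK inhibitor lists were called by limma, with 2 of 8, 4 of 20, 5 of 13, 1 of 5 and 1 of 6 at an unadjusted p under 0.05, a threshold that 15.5% of all genes passed. Of the 28 developmental regulators 3 were called lower (Lhx2, Dlx5 and Gsc). For Klf4 alone, 1 of the 28 (Wnt1) was called higher, along with 1 of 30 replication genes and 11 of 29 G2 and mitosis genes called lower.

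The last comparison was that of the form of Klf4, with 1 array on each side and therefore no test. With the 9-residue extension in a cassette (OK+9MS minus OKMS), Ezh2 differed by -0.69, from 11.54 to 10.85, Jarid2 by -0.57, Phf19 by -0.46, Suz12 by -0.43, Eed by -0.23 and Mtf2 by -0.13, and Ezh1 by 0.08. With Klf4 alone (Klf4L minus Klf4S) the differences were -0.11 for Ezh2, -0.14 for Jarid2 and -0.28 for Phf19, and 0.05, 0.03, 0.07 and -0.04 for Suz12, Eed, Mtf2 and Ezh1. Differences were thus larger in the cassette pair for all 7 members, as they were over all genes, whose differences had an SD of 0.418 in that pair and 0.126 in the other. A difference as large as that of Ezh2 in the cassette pair was seen in 6.80% of all genes, for Jarid2 in 10%, for Phf19 in 13.9%, for Suz12 in 15.4%, for Eed in 33.4%, for Mtf2 in 50.1% and for Ezh1 in 63.5%. In the Klf4 pair that share was 4.01% for Phf19 and between 23.4% and 73.4% for the other members. No member reached a 2-fold difference, a size that 3.18% of all genes reached in the cassette pair and 0% in the Klf4 pair. The cell cycle score differed by -0.52 in the cassette pair and by -0.01 in the Klf4 pair, and its part in the member differences was not tested.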

How the data were processed

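The deposited table holds log2 expression values from RMA, per the submitters' processing notes. RMA corrects the background, normalizes the arrays together and summarizes the probes of a set, which can understate large differences. Its version and the array's build are not given in the sources used here. A signal under 6 was treated as near background. Of 28856 probe sets, 21789 had 1 gene symbol in GEO's platform annotation, 1621 several and 5446 none; 21698 of the first matched a current symbol. For the 999 genes with several probe sets the one with the highest mean was kept, which gave 19938 genes, with no filter on dim genes. Of 205 genes in the lists 197 were measured.

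Groups came from the labels. Replicates are different constructs, so p-values measure the spread between constructs. A 3-group model over 11 arrays was fitted with limma 3.58.1 (R 4.3.3; lmFit, eBayes, 8 residual degrees of freedom), with Benjamini-Hochberg adjustment over all genes and calls at 0.05; the single lacZ array adds no spread of its own and is taken to vary as the others do. Correlations used Python 3.11.15 and all pairings of the 8 arrays (two-sided; smallest possible p 2.48e-05). Scripts were tested on simulated data. Promoters and positions are RefSeq's on GRCm38.p6, matched by symbol for 7 of 7 members. The alternatives were array centring, quantile normalization, the mean of probe sets, an intensity trend, a filter on dim genes, other sets of arrays, either cell cycle list alone and each array left out.

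Named were all members, up to 4 called genes of each chromatin list by size and up to 2 of each cell cycle list. Also named were the 2 nearest profiles of each member, and Pou5f1 and Myc. Ring1, Dlx5, Gsc, Cdkn2a, Nanog, Laptm5, Tek, Esam, Klf4 and Sox2 were added after their values were seen. The members and lists were chosen with earlier results of these data known.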

Additional observations from a re-analysis of the deposited data

Results flagged for a closer look

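The cell cycle score of MKOS, 9.02, stood below the other 7 cassettes, whose scores ran from 9.64 to 10.16. Its gap to the nearest of them was 0.543 of the group's whole range, above Dixon's 95% critical value of 0.526 for 8 samples, which chance exceeds in about 1 of 20 groups. That rate holds for 1 test. The same test was also run on each of the 7 members, with no flag, so some flag by chance is likelier than that rate. MKOS was also the cassette with the lowest Ezh2 (10.50), Suz12 (9.92), Mtf2 (8.76) and Phf19 (6.75).

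For 4 members the sign of the difference between the long and the short form of Klf4 was opposite in the cassette pair and in the Klf4 pair, each with 1 array on a side, and the difference between the pairs was not tested. The cassette pair's difference minus the Klf4 pair's was 0.13 for Ezh1, -0.26 for Eed, -0.48 for Suz12 and -0.20 for Mtf2. In the Klf4 pair these 4 members differed by at most 0.07 in size.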

How the results depend on the processing

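With each array centred on its median, the members called for the cassettes against Klf4 alone numbered 1, and Eed against lacZ turned to -0.0084. Leaving out each array in turn gave 0 to 3 called members for the cassettes against Klf4 alone and 0 to 1 against lacZ, the 1 without STEMCCA, with or without the score in the model, and Ezh2 minus Ezh1 ran from 1.11 to 1.35. Eed against lacZ ran from -0.011 to 0.065, negative without OKMS. With the score in the model, Ezh2 against Klf4 alone was 0.064 with the replication genes alone as the score and ran from -0.84 to 0.038 with arrays left out, positive without EB-C5. Phf19's r turned to -0.24 without MKOS and OKMS. Members called for the score's slope numbered 0 with the G2 and mitosis genes alone and 0 to 2 with arrays left out, and Eed against lacZ in that model was -0.0047 with the replication genes alone; these settings were chosen after seeing the data. No other value changed sign under the alternatives run. Without each Klf4-alone array the genes called between cassettes and Klf4 alone were 104 and 92 against 2885, and the cause beyond the smaller group was not tested. For the cassettes against lacZ all-gene calls were 184 with only the compared arrays, 186 without dim genes and 734 without STEMCCA, against 409. For Klf4 alone against lacZ they were 0 by limma with only the compared arrays, where 6485 genes had an unadjusted p under 0.05, 77 without dim genes, and 36 to 268 with arrays left out, against 149. With the score in the model they ran from 0 to 9 against Klf4 alone (7 with all arrays), from 326 to 1503 against lacZ (796) and from 18 to 561 for the score's slope (372). No paired analysis was possible because the labels carry no replicate numbers.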
